A study of Mus musculus with 15 samples.

Results

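RNA-seq was used to compare RAW264.7 cells held with 1 µg of LCCL for 24 h with cells held with the same dose for 6 h. RAW264.7 is an established macrophage-like line of the mouse, here of wild-type genotype, and LCCL is named in the series title as the core motif of a candidate peptide drug tied to M1 macrophages, the inflammatory state of the cell. The comparison took 6 of the 15 libraries of the series, 3 labelled 1 µg for 24 h and 3 labelled 1 µg for 6 h, and every gene that passed a filter on low counts. The other libraries, 3 each of 10 µg for 24 h, 10 µg for 6 h and untreated cells, entered the same fit and were used for reference only. All groups shared the line, the genotype and the batch label, and neither a volume for the doses, nor a vehicle, nor the time at which untreated cells were taken is on the labels. The set has no cells kept for 24 h without LCCL that the labels identify, so exposure to LCCL and time in culture cannot be told apart in the 24 h values.

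Macrophages read peptides, lipids and microbial products through surface receptors and answer with waves of transcription that differ between the first hours and the first day. Growing cells of this line also carry a large programme for division and ribosome production, and cells that run short of amino acids or face other stress switch on genes through the transcription factor ATF4. The gene groups below were written as lists from general knowledge of these pathways.

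The 6 libraries held 19261460 to 22431771 counts, and 12401 of the 25639 gene symbols were tested. Levels are CPM, counts scaled to library size, here adjusted by TMM, a scaling by trimmed means, and are given as means ± SD with n = 3 libraries per group. Changes are log2 fold changes of 24 h over 6 h ± SE from edgeR's quasi-likelihood test, and the words rose and fell are kept for genes with a Benjamini-Hochberg adjusted p under 0.05. The labels do not say whether the libraries came from separate cultures, so the p-values rest on a spread between libraries that may be purely technical. In bulk RNA fewer cells of a type and less RNA per cell cannot be told apart. Genes that mark macrophages were present: the 16 members of the macrophage list, 15 of them tested, summed to 14423 to 16858 CPM in the 24 h libraries. In the 6 h libraries they summed to 15473 to 16039 CPM. The library labelled 24 h replicate 1 stood somewhat apart: its counts differed from those of its fellow 24 h libraries by a chi-square of 14.2 and 16.1 per degree of freedom, against 5.95 between 24 h replicates 2 and 3 and 2.63 to 2.79 among the 6 h libraries. Without that library 7345 genes were called, against 7533 with it.

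The transcriptome differed widely between the times. Of 12401 genes, 7533 passed (60.7%), 3756 of them higher at 24 h (30.3%) and 3777 lower (30.5%). Large changes were mostly rises: 738 genes (5.95%) were at least 2-fold higher at 24 h and 190 (1.53%) at least 2-fold lower. The median size of a called change was 0.42 on the log2 scale, and the median over all genes tested was 0.01. In 8124 genes (65.5%) the 24 h and 6 h libraries did not overlap, 4036 with every 24 h library above (32.5%) and 4088 with every 24 h library below (33.0%). These shares are the background against which the counts of every list below are to be read. By contrast the 6 h libraries gave 0 calls against untreated cells by edgeR (0%), with 337 genes at an unadjusted p under 0.05, and 0 by DESeq2 and by limma-voom, while the 24 h libraries gave 7658 calls against untreated cells (61.8%).

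**Figure D1:**
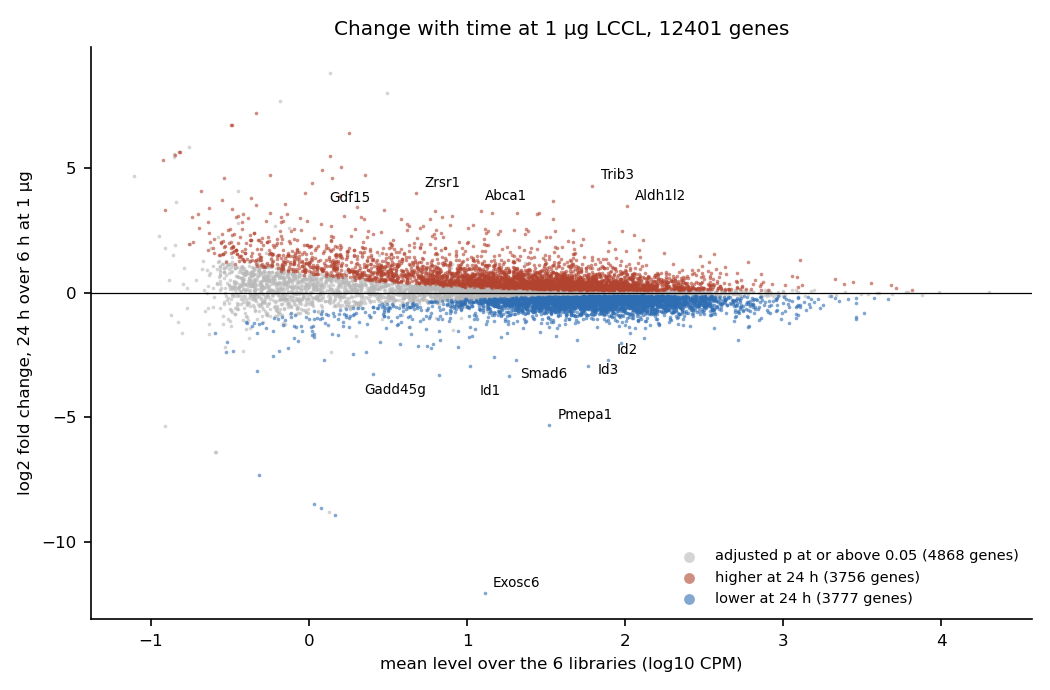
Log2 fold change of 24 h over 6 h at 1 µg (vertical) against the mean level over the 6 libraries in log10 CPM (horizontal), 1 point per gene, with 12 of the named genes labelled. The 3756 genes called higher lie above 0 and the 3777 called lower lie below it. The 2 genes with 0 counts in these 6 libraries are not drawn.

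The largest rises were taken from called genes at a level of at least 5 CPM with no overlap between times. Absence of overlap was thus set by the choice, here and for the largest falls. The rises were led by Trib3, which encodes a pseudokinase that ATF4 induces and that feeds back on it. Trib3 had 86.3, 121 and 148 CPM in the 24 h libraries, against 5.5, 6.75 and 5.55 CPM in the 6 h libraries. Every 24 h library lay far above every 6 h library, and the mean was 19.8-fold higher (log2 fold change 4.31 ± 0.24, adjusted p = 3.48e-08). Aldh1l2, the mitochondrial formyltetrahydrofolate dehydrogenase of one-carbon metabolism, had 129, 209.8 and 225 CPM in the 24 h libraries, against 16.3, 15.3 and 18.8 CPM in the 6 h libraries. The lowest 24 h value, in replicate 1, was still well above the 6 h range (log2 fold change 3.48 ± 0.20, adjusted p = 5.25e-08). Gdf15, a secreted stress cytokine of the TGF-β family, had 5.7, 5.23 and 5.32 CPM in the 24 h libraries, against 0.64, 0.5 and 0.476 CPM in the 6 h libraries. It was a low-level gene with no overlap between the times (log2 fold change 3.32 ± 0.20, adjusted p = 4.14e-13). Slc1a4, a carrier of neutral amino acids, averaged 49.8 ± 8.05 CPM at 24 h against 5.52 ± 0.673 CPM at 6 h and changed by 3.17 ± 0.12.

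A pair of sterol genes stood among the 12. Soat2, which esterifies cholesterol in the endoplasmic reticulum, had 54.4, 66.7 and 74.1 CPM in the 24 h libraries, against 5.17, 4.7 and 5.24 CPM in the 6 h libraries. Abca1, the pump that passes cholesterol to lipoproteins outside the cell, had 59.7, 48.8 and 47.3 CPM in the 24 h libraries, against 5.12, 5.8 and 5.66 CPM in the 6 h libraries. For both genes each 24 h library exceeded each 6 h library several-fold, with log2 fold changes of 3.69 ± 0.10, adjusted p = 6.91e-19 for Soat2 and 3.23 ± 0.10, adjusted p = 3.46e-18 for Abca1. Ighm, the constant region of the immunoglobulin µ chain and a B cell gene, averaged 11.3 ± 1.86 CPM at 24 h against 1.16 ± 0.326 CPM at 6 h (log2 fold change 3.28 ± 0.21). Angptl6, a secreted angiopoietin-like protein, averaged 25.9 ± 8.71 CPM at 24 h against 2.8 ± 0.587 CPM at 6 h, the peptidase inhibitor gene Pi16 14.5 ± 3.12 CPM at 24 h against 1.68 ± 0.41 CPM at 6 h, the kelch-like gene Klhl33 37.5 ± 8.34 CPM at 24 h against 4.02 ± 0.706 CPM at 6 h and the glutamine-repeat gene Glrp1 22.3 ± 4.48 CPM at 24 h against 2.26 ± 0.469 CPM at 6 h. Their log2 fold changes ran from 3.10 for Pi16 to 3.30 for Glrp1. Zrsr1, related to a splicing factor that reads 3′ splice sites, averaged 9.04 ± 0.643 CPM at 24 h against 0.537 ± 0.796 CPM at 6 h (log2 fold change 4.02 ± 0.65, adjusted p = 0.000263), with 0 counts in 1 of the 6 h libraries. Without 6 h replicate 2, which held 29 of the 32 counts at 6 h, the log2 fold change was 6.72. In the GENCODE M21 annotation its exons overlap those of Commd1 on the other strand, which had 11.6 CPM at 24 h against 13.3 CPM at 6 h and did not pass. The strand setting of the counting is not given in the sources used here, so reads of such pairs cannot be told apart. Of the 284 genes that the naming rule takes, 36 have exons that overlap a tested gene on the other strand and 11 one on the same strand, and their values carry this limit.

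Among the largest falls, chosen under the same condition, were genes that answer BMP and TGF-β, ligands whose receptors signal through SMAD proteins. Id1, Id2 and Id3 encode helix-loop-helix proteins that lack a DNA-binding region and hold partner factors in check, and BMP signals induce them. Id1 had 4.28, 3.28 and 2.31 CPM in the 24 h libraries, against 32.8, 34 and 34.3 CPM in the 6 h libraries. Id3 had 11.3, 17.2 and 12.1 CPM in the 24 h libraries, against 105, 106 and 97.1 CPM in the 6 h libraries. Id2 had 20.5, 22 and 20.5 CPM in the 24 h libraries, against 135, 130.4 and 140.4 CPM in the 6 h libraries. In all 3 genes the highest 24 h library was below the lowest 6 h library, and the means were 10.1-fold, 7.56-fold and 6.44-fold lower at 24 h for Id1, Id3 and Id2 (log2 fold changes -3.34 ± 0.13, -2.92 ± 0.12 and -2.69 ± 0.06). Pmepa1, a membrane protein that TGF-β induces and that dampens SMAD signalling, had 2.56, 1.43 and 0.837 CPM in the 24 h libraries, against 59.8, 68.9 and 65.9 CPM in the 6 h libraries. It was nearly absent at 24 h (log2 fold change -5.31 ± 0.16, adjusted p = 2.85e-14). Smad6, an inhibitory SMAD, averaged 5.47 ± 0.427 CPM at 24 h against 35.3 ± 1.33 CPM at 6 h (log2 fold change -2.68 ± 0.11). Skil, a repressor that binds SMADs, fell to 84.1 ± 10.3 CPM at 24 h, against 204 ± 6.97 CPM at 6 h. Of the 19 tested members of the SMAD target and Id list, 13 fell and 4 rose, with a median of -0.25 that is far smaller than the changes of its leading members.

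The other large falls were of varied function. Gadd45g, a growth arrest and DNA damage gene, averaged 1.22 ± 0.42 CPM at 24 h against 12.1 ± 0.51 CPM at 6 h (log2 fold change -3.29 ± 0.18). Olfml3, a secreted glycoprotein known from microglia, averaged 4.2 ± 1.71 CPM at 24 h against 25.4 ± 0.815 CPM at 6 h, the membrane protein gene Tmem26 2.09 ± 1.24 CPM at 24 h against 9.78 ± 1.94 CPM at 6 h, and Rgs16, which switches off G proteins, 1.8 ± 0.763 CPM at 24 h against 8.04 ± 0.691 CPM at 6 h. None of the 3 overlapped between times, with log2 fold changes of -2.58 ± 0.17, -2.20 ± 0.28 and -2.15 ± 0.20. Cxcl10, an interferon-induced chemokine, had 4.24, 2.59 and 2.86 CPM in the 24 h libraries, against 13.2, 14.5 and 15.6 CPM in the 6 h libraries. All 24 h libraries were below all 6 h libraries (log2 fold change -2.15 ± 0.14, adjusted p = 2.11e-12). On the opposite strand Art3, with under 1 CPM at both times, shares exon sequence with it. Exosc6, a subunit of the RNA exosome, had 0 counts in each 24 h library and 1491 counts over the 6 h libraries, at least 570.0-fold lower when 3 counts over the group are taken as the floor. The exons of Exosc6 overlap on the same strand those of Aars, the alanyl-tRNA synthetase gene, which averaged 380.4 ± 49.9 CPM at 24 h against 200.3 ± 8.23 CPM at 6 h. Whether reads of one were counted for the other was not tested.

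**Figure D2:**
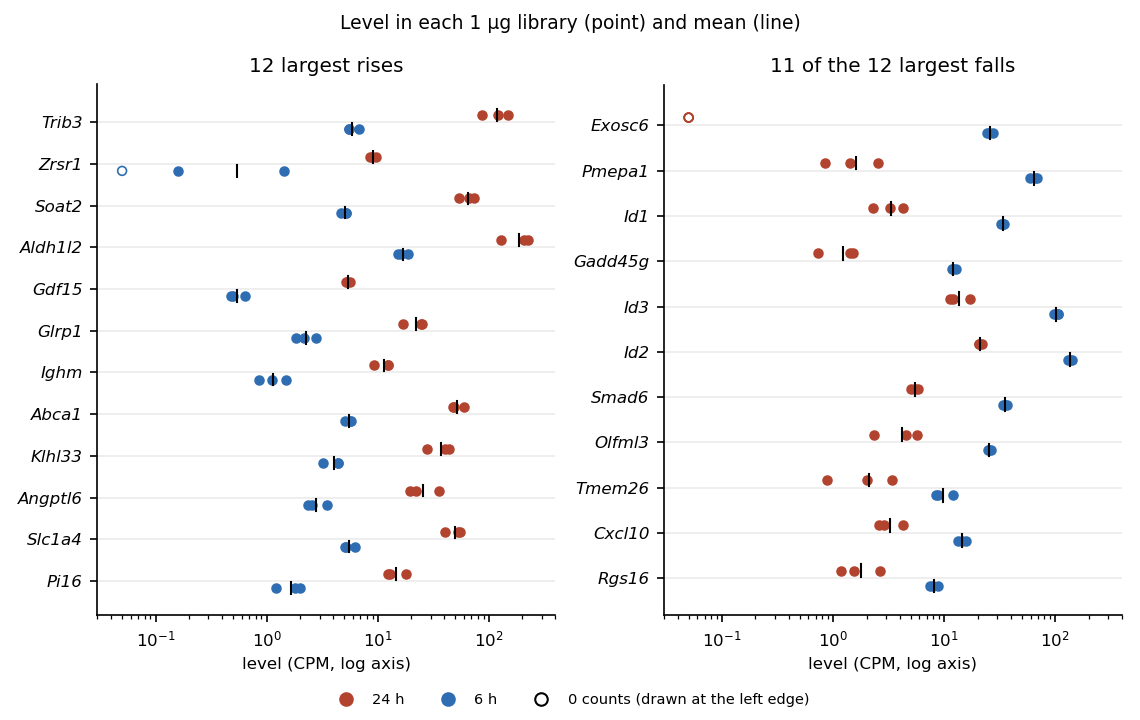
Level of each 1 µg library in CPM on a log axis for the 12 genes with the largest rise (left) and 11 of the 12 with the largest fall (right), 24 h above 6 h within each gene, with the mean as a line. No gene drawn overlaps between times, a condition of the choice. Exosc6 has 0 counts in all 24 h libraries and Zrsr1 in 1 of the 6 h libraries, drawn as open points at the left edge.

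ATF4 is a transcription factor whose protein is made when amino acids are short or other stress slows general translation, and it drives genes for amino acid uptake, synthesis and tRNA charging. Of 23 tested members of this list, 22 rose and 0 fell, with a median log2 fold change of 1.26. Atf4 itself had 532, 610.0 and 586 CPM in the 24 h libraries, against 281, 282 and 273 CPM in the 6 h libraries. The times did not overlap (log2 fold change 1.05 ± 0.06, adjusted p = 9.25e-14). Chac1, which breaks down glutathione, averaged 34.1 ± 2.99 CPM at 24 h against 5.87 ± 0.144 CPM at 6 h. Sesn2, a brake on the growth kinase mTORC1, averaged 61.6 ± 0.767 CPM at 24 h against 10.9 ± 0.892 CPM at 6 h. Slc6a9, a glycine carrier, averaged 40.3 ± 3.19 CPM at 24 h against 6.72 ± 0.322 CPM at 6 h. These 3 genes were 5.81-fold, 5.66-fold and 6-fold higher at 24 h. The exons of Slc6a9 overlap those of Ccdc24 on the other strand, which rose by 2.73 ± 0.11. The member that did not pass was Slc7a11, the cystine carrier, named after its values were seen, with 146 ± 65.6 CPM at 24 h against 142 ± 7.38 CPM at 6 h (log2 fold change 0.04 ± 0.23, adjusted p = 0.895). Without 24 h replicate 1 it had -0.39 and was called lower (adjusted p = 0.000123). Nupr1, a small stress-induced nuclear protein, averaged 41.2 ± 5.7 CPM at 24 h against 7.27 ± 0.132 CPM at 6 h, and Asns, asparagine synthetase, averaged 266 ± 44.6 CPM at 24 h against 87.9 ± 2.31 CPM at 6 h. On the log2 scale they changed by 2.50 ± 0.13 and 1.59 ± 0.09.

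Aminoacyl-tRNA synthetases load tRNAs with amino acids. Of 20 tested genes of the cytosolic enzymes, 14 rose and 4 fell, with a median of 0.50. Nars, for asparagine, had 421, 548 and 518 CPM at 24 h, against 261, 250.4 and 261 CPM at 6 h. Aars, for alanine, had 323, 414 and 404 CPM at 24 h, against 209.8, 195 and 196 CPM at 6 h. Cars, for cysteine, had 105, 119.6 and 114 CPM at 24 h, against 55.9, 54.5 and 56.5 CPM at 6 h. In each the libraries of the times were separate, and the log2 fold changes were 0.95 ± 0.07, 0.93 ± 0.07 and 1.02 ± 0.06. Iars, Lars and Yars, for isoleucine, leucine and tyrosine, rose by 0.67 ± 0.05, 0.69 ± 0.05 and 0.63 ± 0.06. The 4 members that fell, named after their values were seen, were Farsa (-0.47 ± 0.06), Hars (-0.48 ± 0.06), Kars (-0.39 ± 0.05) and Dars (-0.24 ± 0.06), for phenylalanine, histidine, lysine and aspartate. The log2 fold changes ran from -0.48 for Hars to 1.23 for Sars, the serine enzyme, also named after its value was seen.

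ATF4 binds amino acid response elements, here searched as TGATGNAA on both strands, where N is any base, in RefSeq promoter windows (GRCm38.p6) of 300 bases, 250 before and 50 after each start site. The counting used GRCm39, so windows were joined by gene symbol and never by coordinate. The element was found in 6 of 21 ATF4 list genes with a window (28.6%) and in 5 of 13 synthetase genes (38.5%), against 2.9% of the 9623 tested genes with a window. Among genes called higher 3.88% held the element, and among those called lower 2%. Since the lists were written from general knowledge of these pathways, such list shares, here and below, describe the lists and not the change with time. These are matches of letters and not bound sites, and matches to different elements may overlap. The 3 called genes with the smallest p in each list that held a match are shown in the gene's direction, with the match in capitals. Genes on a chromosome that was left out of the display were passed over, here and in the promoters below.

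Chac1 (chr2:119351029-119351076, plus strand): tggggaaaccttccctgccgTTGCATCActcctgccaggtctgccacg
Nupr1 (chr7:126625553-126625600, minus strand): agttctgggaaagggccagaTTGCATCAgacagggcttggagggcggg
Asns (chr6:7693215-7693242, minus strand): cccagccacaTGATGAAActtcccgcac
Iars (chr13:49682127-49682154, plus strand): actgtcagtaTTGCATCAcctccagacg
Aars (chr8:111033841-111033868, plus strand): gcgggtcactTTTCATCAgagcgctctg
Yars (chr4:129189896-129189923, plus strand): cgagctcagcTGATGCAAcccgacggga

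The match began 193 bases before the start site in Chac1, 110 before it in Nupr1 and 23 before it in Asns. In Iars, Aars and Yars it lay just after the start, by 7, 9 and 3 bases.

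Serine and one-carbon enzymes make serine and glycine and pass single carbons to nucleotides and methyl groups. Of 19 tested genes 10 rose and 6 fell (median 0.38). The serine branch rose: Phgdh, its first enzyme, had 83.2, 101 and 112 CPM at 24 h, against 40.9, 39.9 and 42.8 CPM at 6 h. Psph, its last, averaged 57 ± 6.04 CPM at 24 h against 25.6 ± 1.55 CPM at 6 h, and Psat1, the enzyme between them, averaged 418 ± 36.9 CPM at 24 h against 277 ± 3.65 CPM at 6 h. The 24 h and 6 h libraries of Phgdh did not overlap, and the log2 fold changes were 1.26 ± 0.08, 1.15 ± 0.08 and 0.59 ± 0.05. The mitochondrial enzymes Mthfd2 and Shmt2 rose by 1.16 ± 0.05 and 0.77 ± 0.08. Tyms, thymidylate synthase, fell by 0.79 on the log2 scale and Mthfd1 by 0.78. Mat2a, which makes the methyl donor S-adenosylmethionine, averaged 214 ± 12 CPM at 24 h against 385 ± 6.4 CPM at 6 h (log2 fold change -0.85 ± 0.05). Psat1, Shmt2, Tyms and Mthfd1 were named after their values were seen. Psph shares exons on the other strand with the chaperonin gene Cct6a, which fell.

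Liver X receptors sense oxidised sterols and turn on cholesterol export. Of 14 tested target and efflux genes 9 rose and 1 fell (median 0.42). Abcg1, which exports cholesterol to high-density lipoprotein, had 214, 207 and 215 CPM in the 24 h libraries, against 46.6, 48 and 50.3 CPM in the 6 h libraries. No 24 h library overlapped a 6 h library (log2 fold change 2.13 ± 0.06, adjusted p = 5.47e-19). Scd1 and Scd2, desaturases that make monounsaturated fatty acids, averaged 442 ± 48.8 CPM at 24 h against 158 ± 10.1 CPM at 6 h and 1815 ± 259 CPM at 24 h against 732 ± 34 CPM at 6 h, and Pltp, a phospholipid transfer protein, 51.9 ± 4.78 CPM at 24 h against 24.7 ± 2.29 CPM at 6 h. The log2 fold changes of the 3 were 1.49 ± 0.07, 1.31 ± 0.08 and 1.07 ± 0.08. The 1 member that fell, named after its values were seen, was Apoe, the apolipoprotein of macrophage lipid export, with -0.38 ± 0.13, a call lost without 6 h replicate 2 (adjusted p = 0.0665) or 3 (0.0664). In cholesterol synthesis 14 of 27 fell and 4 rose (median -0.15). Hsd17b7 averaged 55.9 ± 4.93 CPM at 24 h against 121 ± 2.49 CPM at 6 h and Idi1 131 ± 16.4 CPM at 24 h against 219.7 ± 4.64 CPM at 6 h, both enzymes of the pathway, with log2 fold changes of -1.11 ± 0.06 and -0.75 ± 0.06. In the fatty acid and storage list 11 of 27 rose and 7 fell. Lpin1, a phosphatidate phosphatase, averaged 46.4 ± 6.75 CPM at 24 h against 16.2 ± 1.3 CPM at 6 h, and Plin2, the coat protein of lipid droplets, 217 ± 10.9 CPM at 24 h against 159 ± 5.08 CPM at 6 h. Among 12 tested genes of prostaglandin and leukotriene synthesis, 3 rose and 2 fell. Alox5, the first enzyme of leukotriene synthesis, averaged 64.4 ± 8.84 CPM at 24 h against 29 ± 1.11 CPM at 6 h (log2 fold change 1.15 ± 0.08).

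Hypoxia-inducible factors act on a set of genes of oxygen supply and sugar use. Of 24 tested members 16 rose and 7 fell (median 0.40). Vegfa, the endothelial growth factor, had 68.5, 71.2 and 72.6 CPM in the 24 h libraries, against 17.2, 16.5 and 16.9 CPM in the 6 h libraries. The groups stood 4.19-fold apart with little spread (log2 fold change 2.07 ± 0.07, adjusted p = 2.78e-17). Ddit4, an inhibitor of mTORC1, averaged 10.4 ± 2.5 CPM at 24 h against 1.33 ± 0.193 CPM at 6 h, and Pdk1, which restrains pyruvate dehydrogenase, averaged 115 ± 8.33 CPM at 24 h against 84.4 ± 3.62 CPM at 6 h. Their log2 fold changes were 2.95 ± 0.21 and 0.45 ± 0.05. The targets that encode glycolytic steps did not all follow: Ldha, lactate dehydrogenase, fell to 466 ± 37.9 CPM at 24 h, against 770.2 ± 22.1 CPM at 6 h, and Slc16a1, a lactate carrier of the glycolysis list, to 146 ± 12.1 CPM, against 286 ± 2.92 CPM at 6 h. Over the glycolysis list 9 of 22 rose and 10 fell (median -0.10). Pfkp, a phosphofructokinase, and Aldoc, an aldolase, rose by 0.76 ± 0.06 and 0.71 ± 0.05, while Hk1, hexokinase, changed by -0.76 ± 0.06.

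Iron genes changed in nearly every member, with 8 of 20 higher and 10 lower (median -0.21). Tfrc, the transferrin receptor that takes up iron, had 236, 239 and 183 CPM in the 24 h libraries, against 795, 853 and 809.7 CPM in the 6 h libraries. The mean was 3.73-fold lower at 24 h, with no overlap (log2 fold change -1.90 ± 0.07, adjusted p = 2.69e-14). Ftl1, the ferritin light chain that stores iron, averaged 2339 ± 328 CPM at 24 h against 4137 ± 71.1 CPM at 6 h (log2 fold change -0.82 ± 0.07). Cp, ceruloplasmin, which oxidises iron on its way out of the cell, had 231 counts over the 24 h libraries and 2 counts over the 6 h libraries, a ratio of 101 with an exact 95% counting interval of 27.6 to 836. That interval, like the floor of 3 counts, covers counting error only. Slc25a37, the mitochondrial iron carrier, rose by 0.41 ± 0.05, and Steap3, an endosomal iron reductase, changed by -0.42 ± 0.05.

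NRF2 drives antioxidant and glutathione genes. Of 25 tested members 18 fell and 2 rose (median -0.46). Gclm and Gclc, the subunits of the enzyme that starts glutathione synthesis, had 511, 534 and 501 CPM at 24 h, against 777, 763 and 773 CPM at 6 h for Gclm and 120.2, 99.4 and 88.6 CPM at 24 h, against 203, 214 and 215 CPM at 6 h for Gclc. Gsr, glutathione reductase, averaged 73.2 ± 10.5 CPM at 24 h against 147 ± 1.26 CPM at 6 h. None of the 3 overlapped between times, and the log2 fold changes of the subunits were -0.58 ± 0.05 and -1.03 ± 0.07. In the pentose phosphate pathway, which yields NADPH and ribose, 6 of 10 fell and 1 rose (median -0.43). G6pdx, its first enzyme, averaged 189 ± 28.9 CPM at 24 h against 342 ± 1.73 CPM at 6 h, and Pgd 383 ± 57.9 CPM at 24 h against 659 ± 23.5 CPM at 6 h. In the TCA cycle list 15 of 25 fell and 5 rose (median -0.19). Idh3a and Mdh2 changed by -0.69 ± 0.06 and -0.53 ± 0.05. Of 63 nuclear respiratory chain genes 24 fell and 5 rose, 46% called and thus fewer than the 60.7% over all genes. Of 13 mitochondrially encoded transcripts 2 rose and 2 fell. The smallest p among them was that of mt-Nd1, a complex I subunit, with 4204 ± 209 CPM at 24 h against 4986 ± 217 CPM at 6 h (log2 fold change -0.25 ± 0.05).

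Replication and mitosis genes fell almost throughout. Of 54 tested genes of DNA replication 53 fell and 0 rose (median -0.70), and of 68 of mitosis 65 fell and 0 rose (median -0.42). Mcm3, a subunit of the helicase that opens DNA, had 146, 151 and 126 CPM in the 24 h libraries, against 299, 280.1 and 283 CPM in the 6 h libraries. Cdc6, which loads that helicase, averaged 20.9 ± 2.76 CPM at 24 h against 47.3 ± 2.5 CPM at 6 h, and Fen1, which trims Okazaki fragments, 84.4 ± 10.0 CPM at 24 h against 185 ± 14.4 CPM at 6 h. For all 3 the highest 24 h library was below the lowest 6 h library, and the log2 fold changes were -1.03 ± 0.06, -1.17 ± 0.07 and -1.13 ± 0.06. Rpa1, which coats single-stranded DNA, and Chaf1a, which places histones behind the fork, changed by -0.86 ± 0.05 and -0.98 ± 0.06. Cdk1, the kinase that starts mitosis, had 85.1, 80.3 and 66.5 CPM in the 24 h libraries, against 144, 143 and 142 CPM in the 6 h libraries. Aurka and Aurkb, kinases of the spindle and the chromosomes, averaged 47.9 ± 2.61 CPM at 24 h against 75.5 ± 2.44 CPM at 6 h and 73.6 ± 3.78 CPM at 24 h against 113 ± 2.37 CPM at 6 h. Again no library overlapped, and the log2 fold changes were -0.88 ± 0.06 for Cdk1, -0.66 ± 0.06 for Aurka and -0.61 ± 0.05 for Aurkb. Among 25 genes of G1 control 12 fell and 8 rose. Ccnd1, cyclin D1, averaged 607 ± 51.6 CPM at 24 h against 984 ± 22.2 CPM at 6 h, and Ccng2, a cyclin linked to arrest, 36.9 ± 1.96 CPM at 24 h against 13.9 ± 0.158 CPM at 6 h.

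E2F factors bind promoters of replication genes, and mitotic genes carry a short element called the cell-cycle homology region. The E2F letters searched were TTTGGCGC or TTTCCCGC and the homology region TTTGAA, each on both strands of the same windows. An E2F match was present in 14 of 44 replication genes with a window (31.8%), against 3.42% of tested genes. A homology region match was present in 38 of 56 mitosis genes (67.9%), against 14.9% of tested genes. Among genes called higher and called lower, E2F matches were in 2.49% and 5.09%, and homology region matches in 14.7% and 15%. By the same rule the 3 called genes of each list with the smallest p that held a match are shown with the match in capitals. Mcm5 is another subunit of the Mcm3 helicase and Plk1 a mitotic kinase, with log2 fold changes of -0.93 ± 0.06 and -0.57 ± 0.06.

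Mcm3 (chr1:20820276-20820303, minus strand): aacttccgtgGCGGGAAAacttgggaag
Cdc6 (chr11:98907993-98908040, plus strand): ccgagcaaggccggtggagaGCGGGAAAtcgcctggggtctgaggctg
Mcm5 (chr8:75109340-75109387, plus strand): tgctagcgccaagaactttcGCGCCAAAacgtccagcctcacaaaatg
Cdk1 (chr10:69352912-69352937, minus strand): ccgcggcgagTTTGAAactgctggca
Aurka (chr2:172370523-172370548, minus strand): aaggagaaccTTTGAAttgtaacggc
Plk1 (chr7:122159455-122159480, plus strand): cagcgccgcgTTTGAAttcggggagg

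Ribosome biogenesis, the nucleolar making of ribosomes, fell in 44 of 50 tested genes and rose in 1 (median -0.59). Ncl, nucleolin, had 835, 927 and 836 CPM in the 24 h libraries, against 1582, 1550.4 and 1525 CPM in the 6 h libraries. Dkc1, which modifies ribosomal RNA, averaged 68 ± 3.33 CPM at 24 h against 137 ± 2.13 CPM at 6 h, and Grwd1, a ribosome assembly factor, 31.4 ± 3.62 CPM at 24 h against 70.1 ± 3.19 CPM at 6 h. All 24 h libraries were below all 6 h libraries in the 3 genes, with log2 fold changes of -0.84 ± 0.05, -1.01 ± 0.05 and -1.16 ± 0.07. The genes of the ribosomal proteins gave another count: of 78 tested 19 fell and 8 rose (median -0.05), and the 34.6% called was below the 60.7% over all genes. Rpl30 and Rps12, parts of the large and the small subunit, averaged 12.6 ± 0.534 CPM at 24 h against 18 ± 0.971 CPM at 6 h and 9.17 ± 0.948 CPM at 24 h against 14.5 ± 2.76 CPM at 6 h. Most ribosomal protein genes have near-identical processed copies in the genome, and how the authors' counting treated reads that match several places is not given in the sources used here.

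Chaperones that fold new proteins fell in 21 of 27 tested genes and rose in 2 (median -0.49). Hspa8, the constant HSP70 of the cytosol, had 608, 637 and 660.4 CPM in the 24 h libraries, against 1351, 1317 and 1282 CPM in the 6 h libraries. Hsph1, its exchange factor, averaged 76.8 ± 9.19 CPM at 24 h against 167 ± 9.24 CPM at 6 h, and Hsp90aa1, HSP90 alpha, 255 ± 19.4 CPM at 24 h against 458 ± 13.7 CPM at 6 h. No library overlapped in these 3, whose log2 fold changes were -1.05 ± 0.05, -1.12 ± 0.06 and -0.85 ± 0.05. The unfolded protein response list, for stress of the endoplasmic reticulum, had 14 of 23 lower and 5 higher (median -0.55). Calr, calreticulin, averaged 663 ± 107 CPM at 24 h against 1531 ± 44.8 CPM at 6 h, and Dnajb11, a co-chaperone of the reticulum, 110.4 ± 12.2 CPM at 24 h against 182 ± 10.9 CPM at 6 h. Among the members that rose were Ern1, the sensor kinase IRE1, with 109 ± 14.9 CPM at 24 h against 42.1 ± 1.59 CPM at 6 h, and Herpud1, a factor of degradation from the reticulum, with 82 ± 10.4 CPM at 24 h against 41.5 ± 2.17 CPM at 6 h. The log2 fold changes were -1.21 ± 0.08 for Calr and 1.37 ± 0.09 for Ern1.

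Interferon-stimulated genes arm cells against viruses. Of 49 tested members 38 fell and 2 rose (median -0.38). Ifit1, which binds foreign RNA caps, had 7.2, 8.42 and 6.5 CPM in the 24 h libraries, against 26.5, 26.1 and 24.1 CPM in the 6 h libraries. Ifit3, its partner, averaged 5.99 ± 1.34 CPM at 24 h against 16.4 ± 0.353 CPM at 6 h, and Eif2ak2, the RNA-activated kinase PKR, 103 ± 7.33 CPM at 24 h against 173 ± 5.36 CPM at 6 h. Each 24 h library was below each 6 h library in these genes, and the log2 fold changes were -1.79 ± 0.10, -1.44 ± 0.12 and -0.74 ± 0.06. Oasl1, a member of the OAS family, and Mx2, an antiviral GTPase, changed by -0.89 ± 0.06 and -1.24 ± 0.10. Guanylate-binding proteins and immunity-related GTPases act against microbes in vacuoles. Of 11 tested 7 fell and 1 rose (median -0.91). Irgm1 averaged 64.4 ± 5.35 CPM at 24 h against 140.0 ± 4.98 CPM at 6 h and Igtp 4.28 ± 0.325 CPM at 24 h against 8.76 ± 1.56 CPM at 6 h, changes of -1.12 ± 0.06 and -1.03 ± 0.14. Gbp9 had 0 counts at 24 h and 138 over the 6 h libraries, at least 52.8-fold lower, while Gbp8, whose exons overlap it on the same strand, averaged 7.28 ± 2.21 CPM at 24 h against 1.06 ± 0.0954 CPM at 6 h and was the member that rose.

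The interferon-stimulated response element, bound by the factors that interferons activate, was searched on both strands as GAAA, any 2 bases and GAAA again. A match was present in 20 of 38 interferon-stimulated genes with a window (52.6%) and in 7 of 7 GTPase genes (100%), against 3.96% of tested genes. Genes called higher held one in 4.29%, and genes called lower in 3.88%. Under that rule again, the 3 called interferon-stimulated genes with the smallest p that held a match are shown, with the match in capitals.

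Ifit1 (chr19:34640784-34640833, plus strand): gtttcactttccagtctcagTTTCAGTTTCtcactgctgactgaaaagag
Eif2ak2 (chr17:78882535-78882564, minus strand): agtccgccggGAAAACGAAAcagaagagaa
Ifit3 (chr19:34583387-34583436, plus strand): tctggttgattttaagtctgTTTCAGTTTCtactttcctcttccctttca

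Markers of classical (M1) activation gave no single direction. Of 12 tested of 18 listed, 4 rose and 4 fell (median -0.16), with 66.7% called against 60.7% over all genes. Cd80 of this list was higher at 24 h and is described with the co-stimulatory ligands below, as are Cd86 and Cd40, which rose. Irf5, another member, was lower, with 159.9 CPM at 24 h against 261 CPM at 6 h. Its exons overlap on the other strand those of Tnpo3, which fell (-0.23 ± 0.05). Tnf, the inflammatory cytokine, had 111, 73.2 and 66.3 CPM in the 24 h libraries, against 117, 112 and 116 CPM in the 6 h libraries. The highest 24 h library, replicate 1, was close to the 6 h range and the other two were lower (log2 fold change -0.46 ± 0.14, adjusted p = 0.0159). Without 24 h replicate 1 the change was -0.72 (adjusted p = 4.51e-13). The call was lost without 24 h replicate 2 (adjusted p = 0.0566) and when only the 6 libraries were fitted (adjusted p = 0.132). Nos2, the inducible nitric oxide synthase, was near the floor, with 13 counts over the 24 h libraries against 2 over the 6 h libraries, and did not pass (log2 fold change 2.31 ± 1.04, adjusted p = 0.0583). It was tested in 11 of the alternative settings and passed in 3, with adjusted p = 0.0378 by limma-voom, 0.0187 without 6 h replicate 3 and 0.0268 without 24 h replicate 3. Without 6 h replicate 3, which held both of the 6 h counts, the fitted log2 fold change was 5.06, a value that depends on the prior count. Ptgs2, the inducible cyclooxygenase, had 13.2, 4.06 and 3.1 CPM at 24 h, against 10.6, 8.76 and 10.5 CPM at 6 h and did not pass (-0.55 ± 0.41, adjusted p = 0.279). Without 24 h replicate 1, whose value was the highest of the 3, its log2 fold change was -1.47 and it passed (adjusted p = 3.25e-09). Acod1, which makes the antibacterial metabolite itaconate, had 23.4, 11.7 and 8.37 CPM at 24 h, against 17, 13.7 and 15.8 CPM at 6 h and did not pass (-0.08 ± 0.29, adjusted p = 0.822). Without 24 h replicate 1 it had -0.61 and passed (adjusted p = 0.000322). Il1b, Il6 and Il12b were at or near 0 at both times and were not tested, with 13, 4 and 0 counts over the 24 h libraries against 3, 0 and 0 over the 6 h libraries. Il1rn, the interleukin receptor antagonist, averaged 62.9 ± 18.9 CPM at 24 h against 121 ± 10.1 CPM at 6 h (log2 fold change -0.94 ± 0.16, adjusted p = 0.000456).

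Co-stimulatory and checkpoint ligands, which macrophages show to T cells, mostly rose: 12 of 16 tested were higher and 1 lower (median 0.69). Cd86 had 2.74, 2.07 and 2.41 CPM in the 24 h libraries, against 0.267, 0.6 and 0.212 CPM in the 6 h libraries. Cd40, the receptor of T cell help, had 5.34, 3.41 and 4.53 CPM in the 24 h libraries, against 1.6, 1.75 and 2.96 CPM in the 6 h libraries. Both were low genes with every 24 h library above every 6 h library, and their log2 fold changes were 2.71 ± 0.36, adjusted p = 5.22e-07 for Cd86 and 1.07 ± 0.23, adjusted p = 0.000251 for Cd40. Cd80, the fellow ligand of Cd86, and Cd83, a marker of mature antigen-presenting cells, averaged 30.5 ± 4.07 CPM at 24 h against 17.1 ± 1.79 CPM at 6 h and 67 ± 1.96 CPM at 24 h against 37.8 ± 2.03 CPM at 6 h. Havcr2, the receptor TIM-3, was the member that fell, with 52.1 ± 4.85 CPM at 24 h against 95.6 ± 5.86 CPM at 6 h. Alternative (M2) markers had 6 of 10 tested higher and 2 lower (median 0.88). Klf4, a transcription factor of this state, had 62.9, 85 and 90.9 CPM at 24 h, against 14.2, 14.5 and 12.8 CPM at 6 h, and Mrc1, the mannose receptor, had 3.27, 2.29 and 2.46 CPM at 24 h, against 0.8, 0.65 and 1.06 CPM at 6 h. The libraries of both genes were separate between times, with log2 fold changes of 2.52 ± 0.14, adjusted p = 1.93e-09 for Klf4 and 1.67 ± 0.28, adjusted p = 1.61e-05 for Mrc1. Clec7a, the β-glucan receptor dectin-1, rose by 1.07 ± 0.06. Against these, Tgm2 of the same list was lower, with 5.02 CPM at 24 h against 16.6 CPM at 6 h. Its exons overlap on the other strand those of Rprd1b, which fell (-0.41 ± 0.05). Arg1, arginase, did not pass (0.791 CPM at 24 h against 0.658 CPM at 6 h, log2 fold change 0.26 ± 0.38, adjusted p = 0.569). Retnla and Chil3 had 0 counts in all 6 libraries, and Il10 had 2 over the 24 h libraries against 23 over the 6 h libraries and was not tested.

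Genes that mark the macrophage itself stayed detected. Of 15 tested 6 rose and 4 fell (median 0.02), with 66.7% called, against 60.7% over all genes. Itgam, the integrin CD11b, averaged 344 ± 13.7 CPM at 24 h against 199 ± 2.95 CPM at 6 h, Adgre1, the antigen F4/80, 63.6 ± 3.88 CPM at 24 h against 40.3 ± 2.27 CPM at 6 h, and Cd14, the co-receptor for bacterial lipopolysaccharide, 1479 ± 187 CPM at 24 h against 2096 ± 26 CPM at 6 h. In the same order, log2 fold changes were 0.79 ± 0.05, 0.66 ± 0.06 and -0.50 ± 0.06. Among Fc and scavenger receptors 7 of 16 rose and 4 fell. Fcgr2b, the inhibitory Fc receptor, averaged 146 ± 4.47 CPM at 24 h against 65.8 ± 4.27 CPM at 6 h, and Cd36, a receptor for oxidised lipid, 59.3 ± 6.49 CPM at 24 h against 153 ± 2.37 CPM at 6 h. Among Toll-like receptors and adaptors 12 of 22 rose and 5 fell (median 0.25). Tlr9, the DNA sensor of endosomes, averaged 14.4 ± 1.48 CPM at 24 h against 5.6 ± 0.32 CPM at 6 h (log2 fold change 1.36 ± 0.13). Among inflammasome and pyroptosis genes 9 of 14 rose and 1 fell (median 0.37). Casp4, the sensor of cytosolic lipopolysaccharide known in mice as caspase-11, averaged 38 ± 3.59 CPM at 24 h against 20.4 ± 0.523 CPM at 6 h, and Naip5, a flagellin sensor, changed by 0.82 ± 0.09 on the log2 scale. The NF-κB list, whose transcription factor drives inflammatory genes, was split, as 8 of 28 rose and 7 fell (median 0.03), and its 53.6% called lay below the 60.7% over all genes. Nfkbia, the inhibitor IκBα, averaged 101 ± 7.52 CPM at 24 h against 131 ± 3.5 CPM at 6 h, and Birc3, an inhibitor of apoptosis, 77.9 ± 5.61 CPM at 24 h against 48.5 ± 1.01 CPM at 6 h. Of inflammatory cytokines 6 of 12 rose and 2 fell, of 21 listed. Tnfsf9, the ligand 4-1BBL, averaged 79.5 ± 2.9 CPM at 24 h against 40.2 ± 0.68 CPM at 6 h (log2 fold change 0.98 ± 0.06). Of chemokines 3 of 9 rose and 2 fell, of 23 listed. Cxcl2, which draws neutrophils, had 31.2, 10.8 and 9.95 CPM at 24 h, against 8.32, 6.6 and 7.99 CPM at 6 h (log2 fold change 1.19 ± 0.40, adjusted p = 0.0234). That call was lost by limma-voom (adjusted p = 0.0711), in the fit of the 6 libraries alone (0.148) and without 6 h replicate 2 (0.0756) or 3 (0.0545). Without 24 h replicate 1, the highest library, the log2 fold change was 0.44 and passed (adjusted p = 0.00462). Of chemokine receptors 3 of 8 rose and 1 fell. Ccr2, the receptor of Ccl2, averaged 8.33 ± 1.42 CPM at 24 h against 3.53 ± 0.594 CPM at 6 h, and Cx3cr1, the fractalkine receptor, 394 ± 84.7 CPM at 24 h against 524 ± 26.8 CPM at 6 h. The call of Cx3cr1 was lost in the fit of the 6 libraries alone (adjusted p = 0.0591) and without 24 h replicate 2 (0.0532).

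In the MHC class I and antigen processing list 10 of 23 rose and 6 fell. Calr, also counted under the unfolded protein response, and Pdia3, both of the peptide-loading machinery, were among those that fell, and H2-T23, a non-classical class I gene, averaged 86.4 ± 3.08 CPM at 24 h against 52.2 ± 0.703 CPM at 6 h. In the MHC class II list 3 of 6 rose and 0 fell, with 5 of the 11 members too low to test. Cd74, the invariant chain, averaged 167 ± 18.5 CPM at 24 h against 73.3 ± 3.6 CPM at 6 h (log2 fold change 1.19 ± 0.07). Among complement genes 7 of 12 rose and 1 fell (median 0.43). C3, the central component, averaged 19 ± 2.84 CPM at 24 h against 5.98 ± 0.451 CPM at 6 h. Osteoclasts form from macrophages under RANK ligand, and RAW264.7 cells can take this route. In that list 3 of 21 rose and 8 fell (median -0.09). Nfatc1, its master factor, had 119.9, 120.4 and 109 CPM at 24 h, against 263, 273 and 256 CPM at 6 h, and Tnfrsf11a, the receptor RANK, averaged 88.6 ± 10.9 CPM at 24 h against 149 ± 2.41 CPM at 6 h. The 24 h and 6 h libraries of Nfatc1 did not overlap, and the log2 fold changes were -1.18 ± 0.06 and -0.74 ± 0.07. Among integrins 8 of 15 rose and 5 fell. Itgav and Itga5, of the receptors for vitronectin and fibronectin, were among those that fell, while Itgam, the integrin described above, rose. Itgav and Itga5 averaged 73.9 ± 4.44 CPM at 24 h against 195 ± 4.86 CPM at 6 h and 152 ± 9.02 CPM at 24 h against 313 ± 6.5 CPM at 6 h. Among matrix proteases and inhibitors 8 of 18 rose and 6 fell. Plau, urokinase, was among those that fell, with 201 ± 29.7 CPM at 24 h against 531 ± 15.2 CPM at 6 h.

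Of 24 tested p53 targets 16 rose and 4 fell (median 0.64). Bbc3 (PUMA), which triggers apoptosis, had 66.7, 79.8 and 79 CPM at 24 h, against 18.8, 16.4 and 19 CPM at 6 h. Pmaip1 (NOXA), of like function, averaged 63.5 ± 4.29 CPM at 24 h against 28.7 ± 2.18 CPM at 6 h. The times did not overlap in Bbc3, and the log2 fold changes were 2.06 ± 0.11 and 1.15 ± 0.08. Sesn2 stands in this list and in that of ATF4. Among BCL2 family and death genes 9 of 27 rose and 8 fell (median 0.01), with 63% called. The survival gene Bcl2 averaged 64.5 ± 8.74 CPM at 24 h against 36.1 ± 2.99 CPM at 6 h, and Bmf, which opposes it, 22.2 ± 1.44 CPM at 24 h against 9.9 ± 0.989 CPM at 6 h. Immediate early genes had 9 of 27 higher and 10 lower (median -0.07), with 70.4% called, against 60.7% over all genes. Fos and Junb, AP-1 subunits, averaged 71 ± 11.1 CPM at 24 h against 141 ± 0.436 CPM at 6 h and 162 ± 13.1 CPM at 24 h against 259 ± 5.9 CPM at 6 h, and Atf3, which stress induces, 172 ± 9.36 CPM at 24 h against 107 ± 5.67 CPM at 6 h. Their log2 fold changes were -0.98 ± 0.07, -0.68 ± 0.05 and 0.68 ± 0.05. Among MAP kinase feedback genes 7 of 14 rose and 5 fell, with 0.86 ± 0.07 for the ERK phosphatase Dusp6 and -1.46 ± 0.19 for Dusp5, another ERK phosphatase. Among circadian clock genes 9 of 16 rose and 2 fell (median 0.32). Nfil3, a repressor of the clock output, averaged 27.8 ± 2.56 CPM at 24 h against 7.8 ± 0.495 CPM at 6 h, and Rora, a nuclear receptor of its loop, 3.94 ± 1.56 CPM at 24 h against 0.5 ± 0.141 CPM at 6 h. Among glucocorticoid-response genes 6 of 11 rose and 4 fell (median 0.75). Tsc22d3 (GILZ) averaged 53.7 ± 5.29 CPM at 24 h against 17.4 ± 0.387 CPM at 6 h and Klf9 46.7 ± 1.79 CPM at 24 h against 22 ± 1.72 CPM at 6 h. Among macrophage transcription factors 8 of 23 rose and 3 fell, 47.8% called. Bach2, a repressor best known in lymphocytes, averaged 3.71 ± 1.21 CPM at 24 h against 0.327 ± 0.119 CPM at 6 h, and Cebpd 70.3 ± 4.26 CPM at 24 h against 35.6 ± 0.901 CPM at 6 h.

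Lysosomes digest what macrophages take up. Of 48 tested lysosomal genes 24 rose and 8 fell (median 0.12). Pla2g15, a lysosomal phospholipase, averaged 39.5 ± 3.2 CPM at 24 h against 22.9 ± 2.56 CPM at 6 h, Mcoln1, a calcium channel of the lysosome, 77.9 ± 1.43 CPM at 24 h against 58.1 ± 1.87 CPM at 6 h, and Lipa, the acid lipase, 694 ± 67 CPM at 24 h against 983 ± 28.2 CPM at 6 h. Their log2 fold changes were 0.79 ± 0.08, 0.42 ± 0.06 and -0.50 ± 0.05. The proton pump that acidifies the lysosome had 7 of 17 subunits lower and 2 higher (median -0.09). Atp6v0a1, a membrane subunit, had 145, 169 and 167 CPM at 24 h, against 102, 104 and 107 CPM at 6 h, and Atp6v1g1, a subunit of the outer part, averaged 141 ± 13.2 CPM at 24 h against 199 ± 6.59 CPM at 6 h. The first rose and the second fell, with 0.62 ± 0.06 and -0.50 ± 0.06. Of 33 autophagy genes 19 rose and 3 fell (median 0.34). Calcoco1, a cargo receptor, averaged 35.4 ± 1.9 CPM at 24 h against 13 ± 0.694 CPM at 6 h, Nbr1, another, 147 ± 8.34 CPM at 24 h against 96.4 ± 0.989 CPM at 6 h, and Ulk1, the kinase that starts autophagy, 33.3 ± 1.24 CPM at 24 h against 21.3 ± 1.11 CPM at 6 h. The 3 log2 fold changes were 1.44 ± 0.08, 0.61 ± 0.05 and 0.64 ± 0.07.

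**Figure D3:**
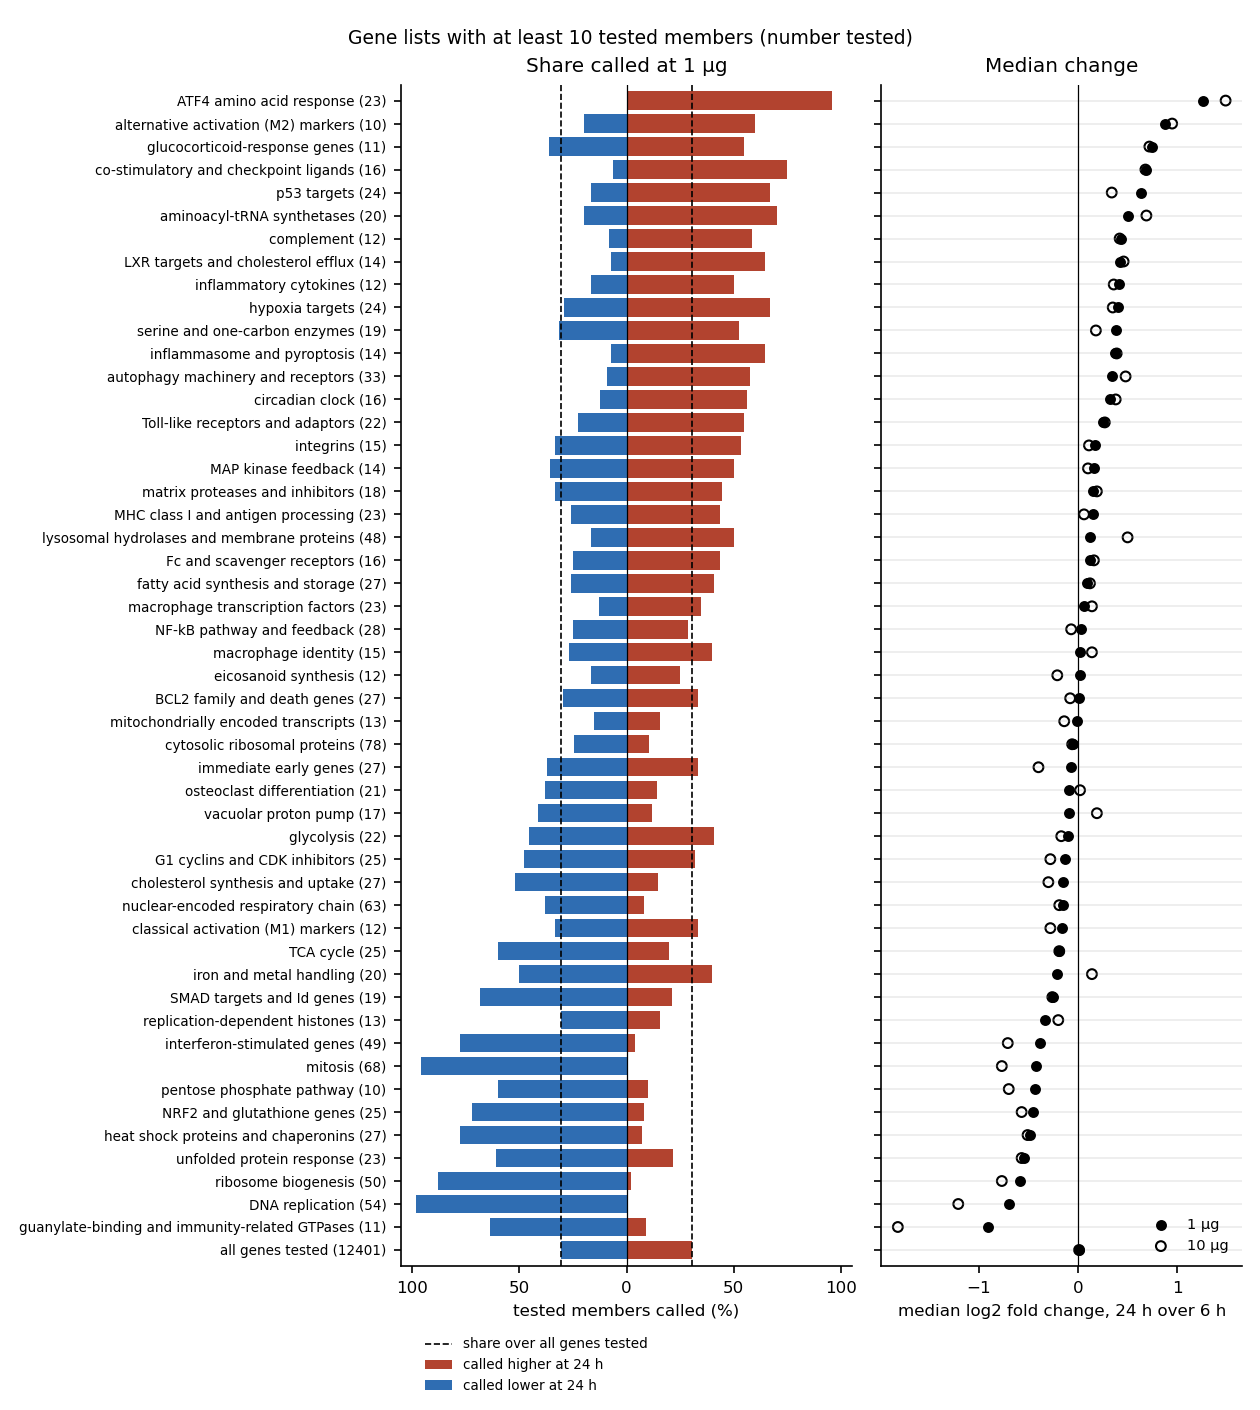
Left, share of the tested members of each list called higher (right of 0) or lower (left of 0) at 24 h at 1 µg in percent, for lists with at least 10 tested members, with the number tested in brackets and the share over all genes as dashed lines. Right, the median log2 fold change of 24 h over 6 h at 1 µg (filled) and 10 µg (open). The ATF4 list has the highest median (1.26) and the replication, mitosis and ribosome biogenesis lists are called lower in 53 of 54, 65 of 68 and 44 of 50 members.

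Markers of other cell types were mostly at or near 0. Of 8 epithelial markers 0 were high enough to test, of 9 neutrophil markers 1, of 9 fibroblast markers 1, of 9 T cell markers 2, of 7 B cell markers 3 and of 8 dendritic cell markers 4. In the T cell list Cd28, a co-stimulatory receptor, averaged 11.3 ± 1.84 CPM at 24 h against 3.24 ± 0.228 CPM at 6 h, and the kinase gene Lck 7.27 ± 0.402 CPM at 24 h against 3.77 ± 0.297 CPM at 6 h, while 4 of the 9 were at 0 in all 6 libraries. In the B cell list the adaptor gene Blnk averaged 19 ± 2.33 CPM at 24 h against 13.3 ± 1.51 CPM at 6 h. All 3 genes rose, as did Ighm, described above, by 1.80 ± 0.15 for Cd28, 0.95 ± 0.14 for Lck and 0.51 ± 0.10 for Blnk. The tested fibroblast marker, the growth factor receptor gene Pdgfrb, rose by 2.17 ± 0.51, at 1.1 CPM at 24 h against 0.243 CPM at 6 h, and the other 8 of that list had 0 counts in all 6 libraries. Of the dendritic cell markers 2 rose, the transcription factor gene Zbtb46 with 1.23 CPM at 24 h against 0.576 CPM at 6 h (1.10 ± 0.36) and the receptor gene Clec9a with 0.532 CPM at 24 h against 0.172 CPM at 6 h (1.58 ± 0.55). The call of Zbtb46 was lost without 24 h replicate 1 (adjusted p = 0.117) or 6 h replicate 2 (0.0674), and that of Clec9a without 6 h replicate 1 (0.0708) or 3 (0.0509). Clec9a was not tested under a stricter filter on low counts or when only the 6 libraries were fitted. The summed level of that list was 4.19 to 5.3 CPM at 24 h against 3.12 to 4.43 CPM at 6 h, with 2 of its 8 at 0 in all 6 libraries. The summed level of the T cell list was 17.1 to 21.1 CPM in the 24 h libraries against 6.8 to 7.15 CPM in the 6 h libraries, and that of the B cell list 29.8 to 32.6 CPM against 14.1 to 16.5 CPM. The part of such transcripts in the other results was not tested.

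A few genes had counts at only 1 of the times. Besides Exosc6 and Gbp9, Adora3, an adenosine receptor, had 0 counts at 24 h and 56 over the 6 h libraries, at least 21.4-fold lower, while Tmigd3, which overlaps it on the same strand, rose by 2.98 ± 0.33. Tapbpl, a relative of the class I loading factor tapasin, had 0 against 124 counts, and Nup43, a nuclear pore subunit, 0 against 168, and no other gene's exons overlap either in the annotation used. In 3 of these 5 called genes with 0 counts at 24 h an overlapping partner on the same strand rose. That partner's part in the zero was not tested. Another gene with 0 counts at 24 h, against 154 over the 6 h libraries, did not pass. Of its tested partners on the same strand 1 fell (-0.32 ± 0.05). The other was under 1 CPM at both times and did not pass (2.81 ± 1.27, adjusted p = 0.0716 by edgeR). Genes with counts at 24 h only were called too. Klhdc7a had 59 counts over the 24 h libraries and 0 over the 6 h libraries, Ankrd45 43 and 0, and Cdhr3 42 and 0. All genes of this paragraph were picked after their values were seen, apart from Exosc6 and Gbp9.

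The same times at 10 µg, in 6 libraries that share none with the 1 µg comparison, gave 8579 calls (69.2%), 4218 higher (34.0%) and 4361 lower (35.2%). Of the 7533 genes called at 1 µg, 6508 (86.4%) were called the same way at 10 µg, which is 75.9% of the 10 µg calls, and 78 were called the opposite way. Across the 12401 genes the changes at the doses had Pearson's r of 0.851 and Spearman's rho of 0.864, given as a description since genes are not independent. The difference of the time change, 1 µg minus 10 µg, was tested as the interaction of dose and time and passed in 2307 genes (18.6%), 1367 with the 1 µg change higher (11.0%) and 940 with it lower (7.58%). Of the genes called the same way at both doses with a called interaction, the change was larger at 10 µg in 1459 and larger at 1 µg in 70.

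The cell cycle lists differed in size and not in direction. Replication genes had a median of -0.70 at 1 µg and -1.21 at 10 µg, and the interaction passed in 43 of 54, all with the smaller fall at 1 µg. Mitosis genes had -0.42 at 1 µg and -0.77 at 10 µg, with the interaction called in 53 of 68. Cdc6 averaged 20.9 ± 2.76 CPM at 24 h against 47.3 ± 2.5 CPM at 6 h at 1 µg and 10.0 ± 0.656 CPM at 24 h against 45.1 ± 0.257 CPM at 6 h at 10 µg (interaction 0.99 ± 0.11, adjusted p = 9.89e-07). Interferon-stimulated genes had -0.38 at 1 µg and -0.71 at 10 µg (30 of 49 called). Ribosome biogenesis had -0.59 and -0.77 (18 of 50 called), and the ATF4 list 1.26 and 1.49 (3 of 23 called). Lysosomal genes differed between doses in their calls. At 1 µg 24 rose and 8 fell, at 10 µg 40 rose and 2 fell, and the interaction passed in 34 of 48, all 34 lower at 1 µg. The proton pump had 2 subunits higher and 7 lower at 1 µg, and 9 higher and 1 lower at 10 µg (13 of 17 called). Atp6v0a1 averaged 160.2 ± 13.5 CPM at 24 h against 104 ± 2.8 CPM at 6 h at 1 µg and 234 ± 8.29 CPM at 24 h against 114 ± 7.08 CPM at 6 h at 10 µg, and Atp6v1g1 141 ± 13.2 CPM at 24 h against 199 ± 6.59 CPM at 6 h at 1 µg and 232 ± 18.8 CPM at 24 h against 226 ± 8.98 CPM at 6 h at 10 µg.

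By the same rule of size, 5 genes were taken from each side of the interaction. Itsn1, a scaffold of endocytosis, averaged 8.38 ± 1.44 CPM at 24 h against 18.3 ± 0.719 CPM at 6 h at 1 µg and 0.183 ± 0.239 CPM at 24 h against 10.4 ± 5.32 CPM at 6 h at 10 µg, with time changes of -1.12 ± 0.34 and -5.81 ± 0.69. The call at 1 µg was lost without 24 h replicate 2 (adjusted p = 0.0504). Ocstamp, a fusion protein of osteoclasts, averaged 2.33 ± 0.296 CPM at 24 h against 5.3 ± 0.35 CPM at 6 h at 1 µg and 0.356 ± 0.233 CPM at 24 h against 4.84 ± 0.176 CPM at 6 h at 10 µg. Hspa1b, the inducible HSP70, averaged 4.55 ± 2.28 CPM at 24 h against 9.45 ± 1.03 CPM at 6 h at 1 µg and 1.41 ± 0.141 CPM at 24 h against 12.5 ± 0.195 CPM at 6 h at 10 µg. Slc5a3, the inositol carrier, and Ranbp3l, a nuclear export factor, overlapped between times at 1 µg and did not pass there (62.2 CPM at 24 h against 55.7 CPM at 6 h and 8.13 CPM at 24 h against 4.59 CPM at 6 h), but fell at 10 µg by 1.89 and 2.01 on the log2 scale. Without 24 h replicate 1 Slc5a3 had -0.58 at 1 µg and passed (adjusted p = 0.00891), and without 24 h replicate 3 Ranbp3l had 1.21 and passed (adjusted p = 0.0299). The exons of Slc5a3 overlap on the same strand those of Mrps6, which fell at 1 µg (-0.46 ± 0.13). On the other side Tspan10, a tetraspanin, averaged 2.36 ± 0.434 CPM at 24 h against 0.657 ± 0.2 CPM at 6 h at 1 µg and 13.3 ± 3.69 CPM at 24 h against 0.617 ± 0.142 CPM at 6 h at 10 µg. Gbp8 averaged 19.8 ± 4.93 CPM at 24 h against 0.895 ± 0.305 CPM at 6 h at 10 µg, and Dio2, which activates thyroid hormone, 10.6 ± 1.59 CPM at 24 h against 1.4 ± 0.288 CPM at 6 h. Gorasp1, a Golgi stacking protein, and Creg2, a secreted glycoprotein, changed by 1.02 ± 0.41 and 0.49 ± 0.31 at 1 µg and by 3.17 ± 0.41 and 2.15 ± 0.28 at 10 µg. At 1 µg Dio2, Gorasp1 and Creg2 did not pass, though Gorasp1 did in 7 and Dio2 in 5 of the 13 alternative settings. The exons of Gorasp1 overlap on the other strand those of Wdr48, which rose at 1 µg (1.47 ± 0.31).

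**Figure D4:**
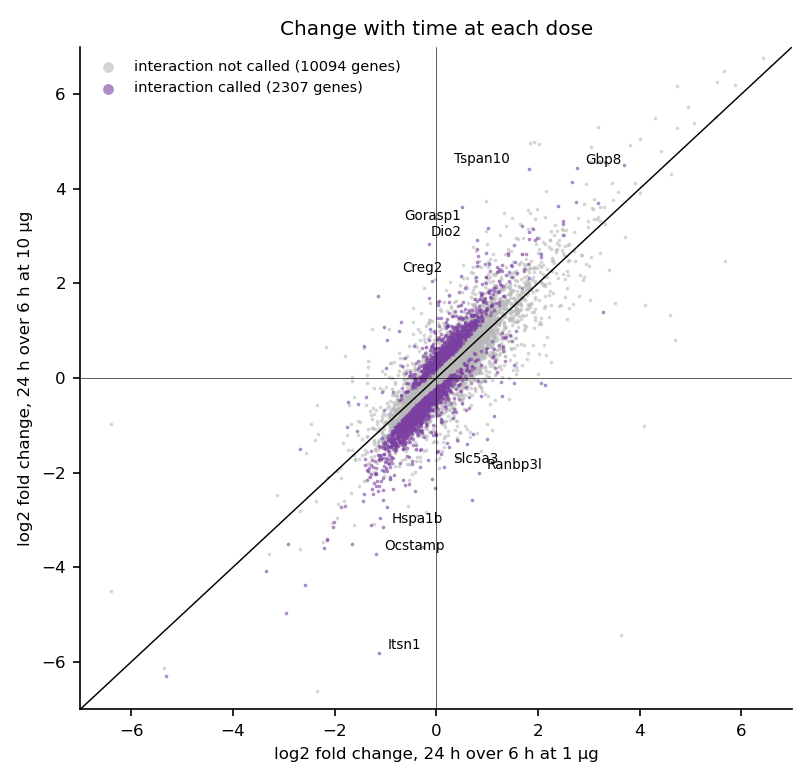
Log2 fold change of 24 h over 6 h at 1 µg (horizontal) against that at 10 µg (vertical), 1 point per gene, with the diagonal of equal change and 10 genes of the interaction labelled. The 2307 genes with a called interaction lie on both sides of the diagonal, and 18 genes lie outside the axes.

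Untreated cells are given beside the 1 µg groups for the leading genes, as levels, since the comparison of 24 h with untreated cells shares its 24 h libraries with the comparison above. Trib3 had 118 ± 31 CPM at 24 h, 5.93 ± 0.711 CPM at 6 h and 5.85 ± 0.681 CPM in untreated cells. Id1 had 3.29 ± 0.985 CPM at 24 h, 33.7 ± 0.805 CPM at 6 h and 33.1 ± 2.02 CPM in untreated cells. Tfrc had 219 ± 31.4 CPM at 24 h, 819 ± 29.8 CPM at 6 h and 793 ± 24.4 CPM in untreated cells. In these genes the 6 h mean lay near the untreated mean and the 24 h mean apart from both. None of the 3 passed between 6 h and untreated cells (adjusted p = 1 for each), and each passed between 24 h and untreated cells, by 4.33 ± 0.24, -3.32 ± 0.13 and -1.85 ± 0.07. Tnf had 83.4 ± 23.9 CPM at 24 h, 115 ± 2.57 CPM at 6 h and 100.1 ± 1.01 CPM in untreated cells. At 10 µg it had 72.6 ± 1.82 CPM at 24 h against 195 ± 1.49 CPM at 6 h. The time change was -0.46 ± 0.14 at 1 µg and -1.42 ± 0.14 at 10 µg, with an interaction of 0.97 ± 0.20, adjusted p = 0.00644.

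**Figure D5:**
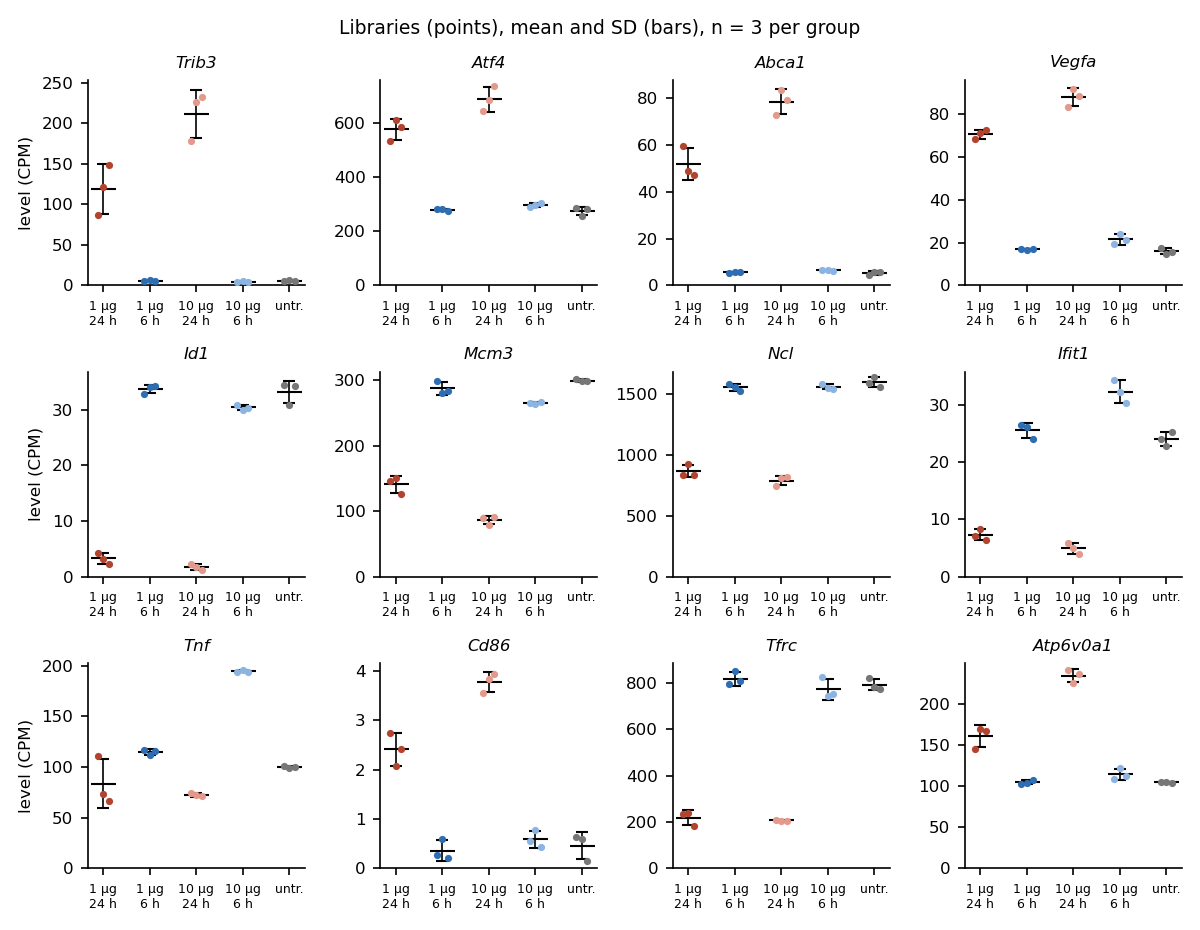
Level in CPM of 12 genes in the 5 groups, 3 libraries each (points) with mean and SD (bars). In Trib3, Atf4, Abca1 and Vegfa the 24 h groups stand above the 6 h groups and untreated cells, in Id1, Mcm3, Ncl, Ifit1 and Tfrc below them. In Tnf the 10 µg 6 h libraries are the highest.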

How the data were processed

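Per the labels, RAW264.7 RNA was made into stranded mRNA libraries. The authors deposited raw counts: 1 row per gene symbol, 1 column per library. The submitters' processing notes name GRCm39, with aligner, counter, annotation and strand setting not given in the sources used here. Columns were matched to libraries by name, with 0 left over. In R 4.3.3, edgeR 4.0.16 removed low genes with filterByExpr (12401 left, 99.97% of counts), scaled by TMM and fitted all 15 libraries in 5 groups with the robust quasi-likelihood fit (10 residual degrees of freedom), so that all groups shared 1 estimate of spread. P-values were two-sided and adjusted by Benjamini-Hochberg over the 12401 genes. Alternatives used DESeq2 1.42.0 and limma 3.58.1.

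The text names the 12 largest called rises and falls with at least 5 CPM in the higher group and no overlap, 5 and 5 for the interaction without the overlap condition, 16 core activation genes up to 5 members of each list with the smallest p and the genes of the promoters shown, leaving out predicted and numbered names. Exceptions say so, and some genes that the rule takes are not reported here. Members and lists were chosen with earlier results of these data known. A group with 0 counts was set against 3 counts over its libraries together. For scale, 3 counts in a single library are 0.13 to 0.16 CPM. Exon overlaps are from GENCODE M21 by symbol, found for 281 of the 284 named genes.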

Additional observations from a re-analysis of the deposited data

Results flagged for a closer look

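The change of 24 h over 6 h was tested for a difference between the doses, as the interaction of dose and time in the edgeR fit, and 2307 of 12401 genes passed. Values below are 1 µg minus 10 µg log2 fold changes of 24 h over 6 h, so that a positive value means a higher change at 1 µg, and every gene listed had an interaction with an adjusted p under 0.05.

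Among genes that fell at 1 µg, the interaction was 1.00 for Pmepa1, 0.74 for Id1, 0.59 for Id3 and 0.26 for Skil, all SMAD or Id genes, whereas Id2 had -1.18 and thus the larger fall at 1 µg. It was 1.80 for Olfml3, 1.39 for Tmem26 and 1.27 for Rgs16. In the cell cycle lists the values were 0.59 for Mcm3, 0.62 for Mcm5, 0.99 for Cdc6, 0.59 for Fen1 and 0.36 for Rpa1, and 0.71 for Chaf1a, 0.43 for Cdk1, 0.32 for Aurka, 0.45 for Aurkb and 0.33 for Plk1. Thymidylate and growth genes gave 0.58 for Tyms, 0.64 for Ccnd1 and 0.47 for Dkc1. For interferon-stimulated genes and GTPases they were 0.91 for Ifit1, 1.16 for Ifit3, 0.52 for Eif2ak2, 0.46 for Oasl1 and 1.22 for Mx2, and 0.31 for Irgm1, 0.94 for Igtp and 1.24 for Cxcl10. Of the largest interactions, 4.69 for Itsn1, 2.85 for Ranbp3l, 2.55 for Ocstamp, 2.10 for Hspa1b and 2.05 for Slc5a3 stood on the higher side, and -2.59 for Tspan10, -2.15 for Gorasp1, -2.12 for Dio2, -1.67 for Gbp8 and -1.66 for Creg2 on the lower.

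Activation and surface genes gave 0.97 for Tnf, 2.04 for Acod1, 1.71 for Arg1 and 0.37 for Tnfsf9, 1.98 for Cx3cr1, 0.41 for Itgam, 0.50 for Cd14 and 0.52 for Tlr9, and 0.29 for Birc3, 0.32 for Nfkbia, 0.92 for Fos, 0.84 for Nfatc1 and 0.42 for Tnfrsf11a. The integrin genes had 0.44 for Itgav and 0.34 for Itga5. Lymphoid genes differed in sign, with 1.89 for Ighm, -0.62 for Cd28 and -0.50 for Blnk. Lower at 1 µg were -0.61 for Clec7a, -0.41 for Casp4 and -0.54 for Atf3. Stress and amino acid genes gave -1.25 for Gdf15, -0.53 for Slc1a4, -0.52 for Sesn2, -0.32 for Aars and -0.81 for Ern1, against 0.41 for Psat1 and 0.24 for Farsa. Lysosome and autophagy genes gave -0.37 for Mcoln1, -0.42 for Atp6v0a1, -0.54 for Atp6v1g1 and -0.29 for Ulk1. In lipid metabolism the values were -0.83 for Soat2, 0.44 for Scd2, -0.55 for Plin2 and 0.94 for Alox5, and 0.35 for Hsd17b7 and 0.46 for Idi1. Genes of sugar, redox and iron metabolism gave 0.50 for Slc16a1, 0.41 for Pgd, 0.38 for Idh3a, 0.30 for Gclm and -0.37 for Steap3, with 0.26 for Mat2a and 0.29 for mt-Nd1. Death and hormone-response genes gave -0.50 for Bbc3, 0.82 for Bmf, -0.56 for Bcl2 and -0.45 for Klf9.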

How the results depend on the processing

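The number of genes called between 24 h and 6 h at 1 µg ranged over 6924 to 7536 in 13 alternatives, against 7533, with 3352 to 3834 higher and 3517 to 3797 lower. Leaving out 1 library at a time gave 6924 to 7345 calls, and 1764 to 2723 for the interaction. The alternatives were median-ratio size factors, DESeq2, limma-voom, no filter, a stricter filter, a replicate block, the compared groups alone, and each library left out. The 6 h cells against untreated cells had 0 calls except without a filter on low counts, where 1 gene, higher, passed. Replicate numbers did not pair the libraries (correlations of same-numbered deviations 0.021, 0.001 and 0.073), and the fit with a replicate block called 7472 genes between the times at 1 µg. The alternatives were followed in 192 of the tested genes named in the text, and 176 kept direction and call in all of them. Over 2491 pairs of gene and alternative 15 lost the call, 18 gained it with the same sign and 9 changed sign, 2 of these with a call. The sign changed only in genes not called at 1 µg: leaving out 1 library at a time, log2 fold changes ranged over -0.28 to 1.21 for Ranbp3l, -0.58 to 0.45 for Slc5a3, -0.39 to 0.26 for Slc7a11, -0.61 to 0.18 for Acod1 and -0.02 to 0.53 for Arg1. They were -0.04 for Slc5a3 and -0.05 for Slc7a11 by limma-voom, and -0.00 for Slc7a11 with the replicate block. The cause was not tested. Of 65 list counts of at least 5 genes, 63 stayed within 1.5 times in every alternative, the others being the 5 rises of the TCA cycle list, 3 without any 1 of the 6 h libraries, and the 8 of the ribosomal proteins, 4 without 24 h replicate 3. No scaling moved the median of all genes by more than 0.017 from 0 on the log2 scale. Counts near the floor limit Nos2, Gbp9, Adora3 and Cp, and 3 libraries a group limit every value.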

Other observations

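Genes with counts at 24 h and nearly none at 6 h, picked after their values were seen, included Slc16a14, a carrier of the monocarboxylate family, with 173 counts over the 24 h libraries and 3 over the 6 h libraries, a ratio of 50.3 (exact 95% counting interval 16.9 to 246), and 14 over the untreated libraries. Igsf21, an immunoglobulin-domain protein, had 70 against 2 counts, and Mixl1, a homeobox factor of the early embryo, 39 against 3. Mixl1 had 215 counts over the 10 µg 24 h libraries against 9 at 10 µg and 6 h.

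Of 13 tested histone genes 2 rose and 4 fell. H4c9, a core histone gene, averaged 1.39 ± 0.508 CPM at 24 h against 3.29 ± 0.439 CPM at 6 h, and H1f0, the linker histone of cells that stop dividing, 333 ± 81.6 CPM at 24 h against 197 ± 7.71 CPM at 6 h, with log2 fold changes of -1.24 ± 0.24 and 0.75 ± 0.15. Most core histone messages lack a poly(A) tail, and the libraries were made from poly(A) RNA, per the kit the labels name.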
